A study of Homo sapiens with 4 samples.

Results

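Long non-coding RNA (lncRNA) genes known for nuclear roles or for responses to cell stress were followed in SY5Y cells, a human neuroblastoma line: NEAT1, MALAT1, KCNQ1OT1, MEG3, MIR22HG, PVT1 and LINC-PINT. They were chosen by name, with earlier results of these data known, and make up 7 of the 57820 gene rows in the count tables. Total RNA was sequenced 12 h after exposure to SGSS05-NS, an inhibitor of the histone methyltransferase SETD8, or to its solvent DMSO. Each of the 2 conditions had 2 libraries, and all 4 came from cells labelled MYCN wild type, so the data describe a single line. The labels and a figure legend of the study give the dose of SGSS05-NS as 3 μM, whereas its methods name a lower dose for these cells, and the study calls the compound SGSS05-NS3. The methods call the 2 libraries of a condition independent biological replicates, and the labels say nothing of separate cultures.

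LncRNAs are transcripts that are not translated into protein, and many of them act where they are made, in the nucleus. NEAT1 is the scaffold around which paraspeckles assemble, MALAT1 is an abundant RNA of nuclear speckles, and KCNQ1OT1 and MEG3 are imprinted RNAs made from one parental copy of their loci. MIR22HG is the host transcript of the microRNA miR-22, PVT1 lies downstream of the MYC oncogene, and LINC-PINT starts next to MKLN1 and is known as a p53-responsive RNA.

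The ends of NEAT1 and MALAT1 are shown because they set these RNAs apart from ordinary messengers. The long form of NEAT1 and MALAT1 are cut by RNase P rather than polyadenylated, and T-rich tracts fold back on an A-rich tract to protect the cut end. A library that keeps only polyadenylated RNA would capture such ends poorly. The labels name a TruSeq RNA kit, and the methods describe stranded total RNA libraries with ribosomal RNA removed. The 120 bases of each gene up to the end of its A-rich tract were read from GRCh37, with the T-rich tracts and the A-rich tract in capitals. The NEAT1 stretch (chr11:65212892-65213011, plus strand) ends at the annotated end of the gene, and the MALAT1 stretch (chr11:65273468-65273587, plus strand) ends 1957 bases before it.
NEAT1: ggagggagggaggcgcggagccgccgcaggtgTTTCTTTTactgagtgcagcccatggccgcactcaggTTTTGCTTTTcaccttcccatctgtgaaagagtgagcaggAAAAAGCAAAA
MALAT1: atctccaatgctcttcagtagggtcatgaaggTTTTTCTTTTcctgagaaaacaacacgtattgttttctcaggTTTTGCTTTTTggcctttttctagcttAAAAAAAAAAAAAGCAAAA
Each stretch held 2 T-rich tracts, and the A-rich tract was 11 bases long in NEAT1 and 19 in MALAT1.

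The mature microRNAs carried by MIR22HG are shown with the seed, bases 2 to 8, in capitals, since the seed sets which messengers a microRNA pairs with. Both arms came from RefSeq on GRCh38.p14 (chr17:1713914-1713935 and chr17:1713952-1713973, minus strand), and their seeds differ.
hsa-miR-22-3p: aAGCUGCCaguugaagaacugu
hsa-miR-22-5p: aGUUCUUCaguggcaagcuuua

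Promoter windows of 300 bases from the same RefSeq table, 250 before and 50 after an annotated start, matched 4 of the 7 genes, with 4 windows for LINC-PINT, 3 for MEG3, 2 for MALAT1 and 1 for MIR22HG. The MIR22HG window (chr17:1716161-1716460, minus strand), the start of the gene with the largest rise, is printed with its 50 transcribed bases in capitals. The LINC-PINT window (chr7:131109876-131110175, minus strand), at the start shared with MKLN1, is printed with its match to the antioxidant response element TGACNNNGC in capitals.
MIR22HG: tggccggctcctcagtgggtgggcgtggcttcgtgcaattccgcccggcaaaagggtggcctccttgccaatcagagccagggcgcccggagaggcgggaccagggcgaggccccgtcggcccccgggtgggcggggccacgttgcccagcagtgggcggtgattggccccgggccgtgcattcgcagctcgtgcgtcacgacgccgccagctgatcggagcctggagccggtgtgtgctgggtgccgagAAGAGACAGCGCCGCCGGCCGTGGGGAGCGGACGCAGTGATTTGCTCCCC
LINC-PINT: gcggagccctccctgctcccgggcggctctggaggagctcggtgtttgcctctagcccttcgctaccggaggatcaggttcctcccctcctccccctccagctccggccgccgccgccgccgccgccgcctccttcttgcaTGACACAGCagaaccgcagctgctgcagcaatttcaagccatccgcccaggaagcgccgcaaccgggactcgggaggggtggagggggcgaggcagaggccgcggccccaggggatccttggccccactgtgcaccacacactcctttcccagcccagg
Both windows were rich in G and C, at 72.3% for MIR22HG and 70.3% for LINC-PINT.

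A set of 8 motifs of stress and growth factors were searched on both strands of all 35116 windows in the table. The MIR22HG window held none of them. The antioxidant response element TGACNNNGC, present in 13.3% of all windows, was found in 3 windows of MALAT1 and LINC-PINT. A single LINC-PINT window each held the heat shock element unit TTCNNGAA (7.74% of all windows), the AP-1 motif TGANTCA (7.71%) and the E-box CACGTG (7.26%). The cyclic AMP response element TGACGTCA (1.85%) was in all 3 windows of MEG3. The heat shock unit GAANNTTC (6.77%), the ATF4 composite element TGATGNAA (3.62%) and the p53 response element (0.0285%) were in no window of these genes. The p53 element was searched in full with no mismatch allowed and matched 10 of all windows. Its absence from the 10 windows of these genes therefore says little. A match describes the letters only, and no binding was measured.

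The libraries held between 21463105 and 25350204 fragments assigned to genes. Of the 57820 rows, 16468 had enough counts to be tested, and a gene was called at an adjusted p under 0.001 (edgeR quasi-likelihood, adjusted by Benjamini-Hochberg). By that rule 1049 genes were higher with SGSS05-NS (6.37%) and 1341 lower (8.14%). Among the 1813 lncRNA genes tested, 82 were higher (4.52%) and 13 lower (0.717%). Fragments that matched no annotated exon on the counted strand were 12.3% to 12.4% of the total with DMSO and 15.3% to 16.1% with SGSS05-NS. Some of them lie on exons of the opposite strand, and their part in the lncRNA values was not tested. The neuroblastoma markers PHOX2A, HAND2, GATA2, GATA3, ISL1 and DBH were expressed in every library, with at least 2262 counts, and the first 4 of them were lower with SGSS05-NS, GATA3 only in 2 of the 4 fits that left out a library (those without replicate 1 of either condition). ISL1 did not pass (log2 fold change -0.61, SE 0.13, edgeR quasi-likelihood adjusted p = 0.0025). Leaving out 1 library at a time gave log2 fold changes of -0.79 to -0.44 for ISL1 and -1.09 to -0.55 for GATA3. TH had at most 2 counts in any library. The markers of blood (PTPRC, CD3E) and endothelium (VWF, CDH5) and the fibroblast gene DCN had at most 2 counts too. The epithelial and fibroblast genes EPCAM, KRT19, CDH1, COL1A1 and COL3A1 had between 1 and 84 counts, and none of them was called.

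Of the 7 lncRNA genes, 5 rose with SGSS05-NS: MIR22HG, NEAT1, LINC-PINT, KCNQ1OT1 and MALAT1, by 2.16-fold to 11.2-fold. Over all genes tested 6.37% were higher, and over the lncRNA genes tested 4.52%. None of the 7 was lower. PVT1 had a fold of 1.43 and did not pass the threshold, and MEG3 had no fragment in any library. The median log2 fold change of the 6 genes tested was 1.76, beside 0.01 for all genes tested and 0.31 for the lncRNA genes tested. In all 6, both SGSS05-NS libraries lay above both DMSO libraries, a separation seen in 37.8% of all genes tested. Because the genes were chosen with earlier results of these data known, these comparisons describe them and are no test of the group. Levels are given as CPM, counts scaled to library size with TMM factors, unless a level per length is named.

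**Figure D1:**
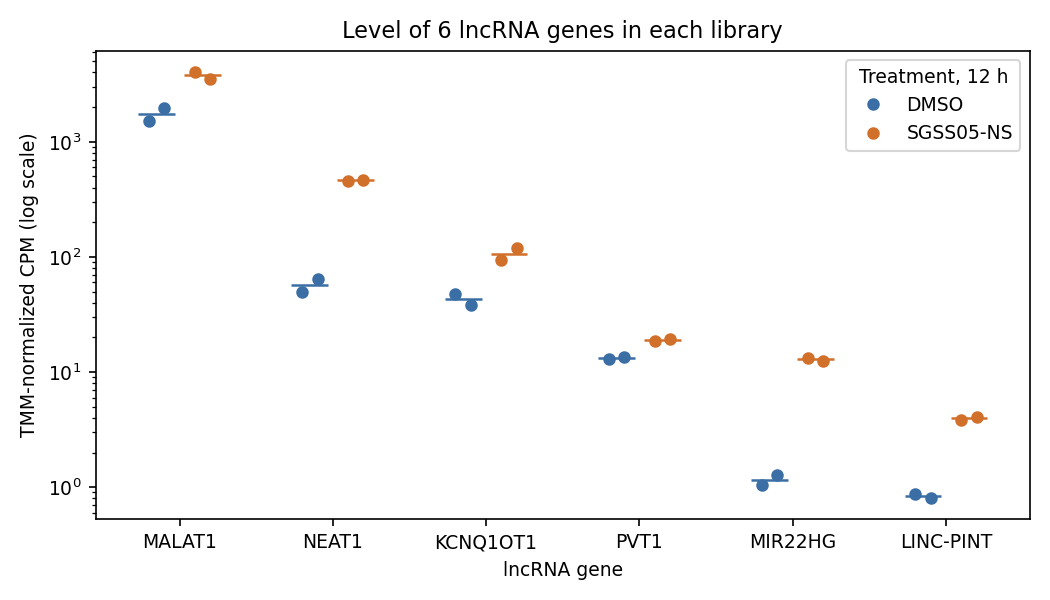
TMM-normalized CPM (log axis) of 6 lncRNA genes in each library, with DMSO in blue, SGSS05-NS in orange and short bars for the mean of 2 libraries. The orange points lie above the blue points for every gene, with the widest gap for MIR22HG (1.16 to 13.0 CPM) and the narrowest for PVT1 (a fold of 1.43).

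NEAT1 (ENSG00000245532, chr11:65190245-65213011, plus strand, GRCh37) spans 22.8 kb and is the RNA without which paraspeckles do not form. It had 1248 and 1506 counts with DMSO and 10119 and 11042 counts with SGSS05-NS. As CPM these were 49.7 and 64.5 with DMSO and 456 and 469 with SGSS05-NS. The 2 treated libraries lay close together, and even the higher DMSO library was far below them. The mean rose from 57.1 ± 10.4 to 463 ± 9.57 CPM (SD, n = 2 each), and the log2 fold change was 3.02 (SE 0.13, edgeR quasi-likelihood adjusted p = 1.5e-08). By p-value NEAT1 stood 15th among the genes with a log2 fold change above 0. The short polyadenylated form and the long form of NEAT1 share their start and one gene row, so these counts cannot be divided between them. Reads on the opposite strand were 1 to 8 per library.

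MALAT1 (ENSG00000251562, chr11:65265111-65275544, plus strand) is a 10.4 kb gene whose RNA stays in nuclear speckles, the stores of splicing factors. Its counts were 38239 and 46176 with DMSO and 89541 and 83149 with SGSS05-NS. The CPM values were 1524 and 1976 with DMSO and 4034 and 3535 with SGSS05-NS. The conditions did not overlap, although the DMSO libraries differed by about as much as the treated ones. The mean went from 1750 ± 320 to 3785 ± 353 CPM (SD, n = 2 each), a log2 fold change of 1.11 (SE 0.13, edgeR quasi-likelihood adjusted p = 4.0e-05). MALAT1 took 0.151% and 0.195% of all gene fragments with DMSO and 0.417% and 0.348% with SGSS05-NS. Ordered by CPM, it moved from 40th and 22nd among all genes tested with DMSO to 9th and 11th with SGSS05-NS, and it was the 2nd lncRNA gene in every library. Its fold of 2.16 was the smallest of the 5 genes that rose.

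KCNQ1OT1 (ENSG00000269821, chr11:2618538-2721233, minus strand) is a 102.7 kb RNA made from inside KCNQ1, in the opposite direction, and is known for silencing neighbouring genes on the paternal copy. Counts were 1195 and 896 with DMSO and 2072 and 2816 with SGSS05-NS. These gave 47.6 and 38.4 CPM with DMSO and 93.4 and 120 CPM with SGSS05-NS. Both treated libraries lay above both DMSO libraries, and the treated libraries were the more variable pair. The means were 43.0 ± 6.56 and 107 ± 18.6 CPM (SD, n = 2 each), with a log2 fold change of 1.31 (SE 0.13, edgeR quasi-likelihood adjusted p = 1.5e-05) and a fold of 2.48. Because KCNQ1 runs over the same bases, the strand of the reads matters here. Opposite-strand reads over KCNQ1OT1 were 55 and 63 with DMSO and 45 and 62 with SGSS05-NS, from 2.13% to 6.57% of the reads of both strands.

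MIR22HG (ENSG00000186594, chr17:1614741-1620468, minus strand) had the largest fold of the 7 genes. This 5.73 kb gene yields the pair of miR-22 arms printed above. It had 26 and 30 counts with DMSO and 297 and 296 with SGSS05-NS. The CPM values were 1.04 and 1.28 with DMSO and 13.4 and 12.6 with SGSS05-NS. Within each condition the libraries were nearly equal, and the gap between the conditions was many times the spread. The mean rose from 1.16 ± 0.175 to 13.0 ± 0.564 CPM (SD, n = 2 each), a fold of 11.2 and a log2 fold change of 3.48 (SE 0.20, edgeR quasi-likelihood adjusted p = 2.3e-07). The counts are of the host RNA. The row of MIR22 itself was not matched by identifier, so the microRNA was not measured here.

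LINC-PINT (ENSG00000231721, chr7:130476023-130794935, minus strand) has the second longest span of the 7 genes, 319 kb, and low counts. These were 22 and 19 with DMSO and 85 and 96 with SGSS05-NS. In CPM the DMSO libraries gave 0.877 and 0.813, and the SGSS05-NS libraries gave 3.83 and 4.08. The libraries of each condition agreed closely and the conditions were well apart. The mean rose from 0.845 ± 0.0449 to 3.96 ± 0.178 CPM (SD, n = 2 each), a fold of 4.66 and a log2 fold change of 2.22 (SE 0.25, edgeR quasi-likelihood adjusted p = 3.4e-05). With at most 96 reads per library, its SE was the widest of the 6 genes tested. The opposite strand held 4 and 1 reads with DMSO and 17 and 6 with SGSS05-NS, up to 16.7% of the reads of both strands.

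PVT1 (ENSG00000249859, chr8:128806772-129199347, plus strand) has the longest span, 393 kb, and 190 annotated transcripts. Counts were 329 and 313 with DMSO and 416 and 453 with SGSS05-NS. The CPM values were 13.1 and 13.4 with DMSO and 18.7 and 19.3 with SGSS05-NS. The conditions did not overlap and the libraries within each were close, with an SD of 0.201 CPM for DMSO and 0.365 CPM for SGSS05-NS (n = 2 each). The log2 fold change of 0.52 (SE 0.12, edgeR quasi-likelihood adjusted p = 0.0046) did not pass 0.001. It did pass with the likelihood ratio test of edgeR, at an adjusted p of 5.2e-04.

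MEG3 (ENSG00000214548, chr14:101245747-101327368, plus strand), the maternally expressed RNA of the DLK1 locus and a known activator of p53, had 0 counts in all 4 libraries on either strand. A count of 0 allows up to 3 fragments, or 0.120 to 0.135 CPM in these libraries. Its paternally expressed neighbour DLK1 had 12373 and 8069 counts with DMSO and 9091 and 6024 with SGSS05-NS. RTL1, another paternally expressed gene of the locus, had between 987 and 2109 counts. Of the maternally expressed RNAs beside it, MEG8 had 9 to 13 counts per library and MEG9 at most 2. Neither DLK1 (log2 fold change -0.33, SE 0.19) nor RTL1 (-0.53, SE 0.19) passed the threshold in edgeR's quasi-likelihood test (adjusted p = 0.18 and 0.042), though RTL1 did without DMSO replicate 1 (adjusted p = 2.5e-04). Reads that fall on more than one annotated gene were not assigned, and 3 genes of the annotation overlap MEG3 on its strand.

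**Figure D2:**
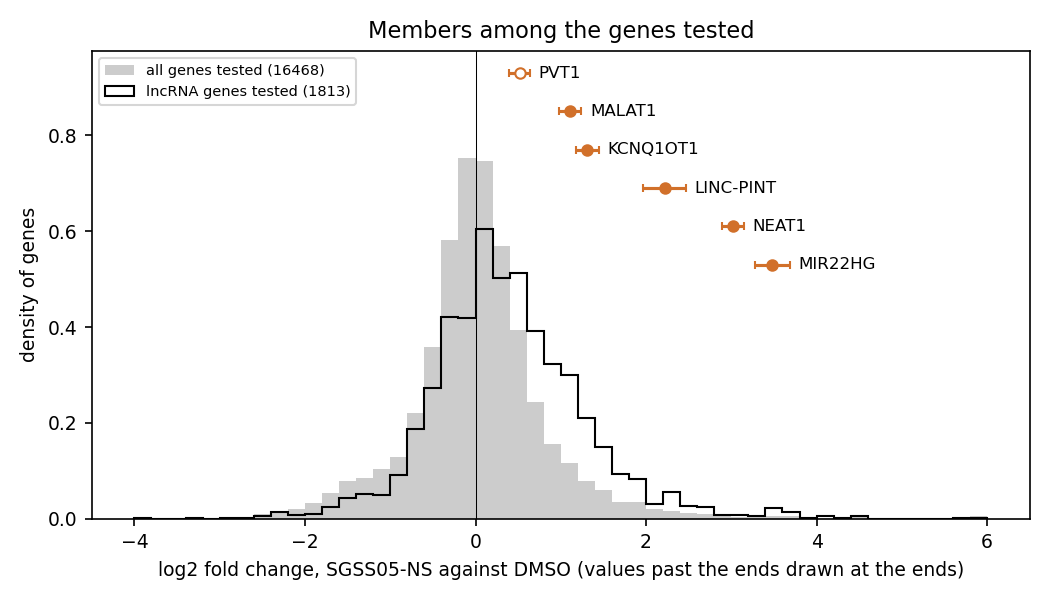
Distribution of the log2 fold change (SGSS05-NS against DMSO) over all 16468 genes tested (grey) and the 1813 lncRNA genes tested (black line), with 6 lncRNA genes as points and the standard error as bars. Filled points passed an adjusted p of 0.001, the open point (PVT1, 0.52) did not, and the height of a point carries no value. MIR22HG (3.48) and NEAT1 (3.02) lie in the right tail of both distributions.

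Set against all genes tested, 99.4% had a log2 fold change below that of MIR22HG, 99.1% below NEAT1, 98.2% below LINC-PINT, 94.5% below KCNQ1OT1, 92.6% below MALAT1 and 80.4% below PVT1. Among the lncRNA genes tested, 67.7% had a log2 fold change above 0, so the same places were less extreme there. MIR22HG was 20th and NEAT1 26th by log2 fold change among the 1813 lncRNA genes. LINC-PINT stood 64th, KCNQ1OT1 229th, MALAT1 324th and PVT1 719th.

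To compare genes with each other, levels were divided by the length of the annotated exons (FPKM). MALAT1 was highest in the DMSO libraries at 168 ± 30.7 FPKM, followed by NEAT1 at 2.51 ± 0.457 (SD, n = 2 each). PVT1 (0.521 ± 0.00792), KCNQ1OT1 (0.464 ± 0.0708) and MIR22HG (0.373 ± 0.0564) came next, and the mean ± SD of neighbours in that order overlapped. LINC-PINT was lowest at 0.0310 ± 0.00165 FPKM. With SGSS05-NS the order by FPKM was MALAT1 (363 ± 33.8), NEAT1 (20.3 ± 0.420), MIR22HG (4.18 ± 0.181), KCNQ1OT1 (1.15 ± 0.201), PVT1 (0.747 ± 0.0144) and LINC-PINT (0.145 ± 0.00652). Neighbours in this second order lay further apart than their SDs, and MIR22HG stood above both PVT1 and KCNQ1OT1. The place of PVT1 depends on the length used. Per kb of its longest transcript it was 5.41 FPKM with DMSO and 7.76 FPKM with SGSS05-NS, above NEAT1 (2.51 FPKM) in the first case and below it (20.3 FPKM) in the second. By that length MIR22HG (0.403 FPKM with DMSO and 4.51 FPKM with SGSS05-NS) stayed below PVT1 in both conditions.

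Genomic length went with the change over all genes, so the longer lncRNA genes were set beside genes of like span. Of the 1141 genes tested that span over 200 kb, 46.4% were lower, 0.964% higher and the median log2 fold change was -0.78. The 82 lncRNA genes of that span had a median of -0.03, with 3 higher and 0 lower. LINC-PINT (319 kb, 2.22) was among those 3, and PVT1 (393 kb, 0.52) also lay above both medians. Between 50 and 200 kb, the bin of KCNQ1OT1 (1.31), the medians were -0.13 for all genes and 0.08 for lncRNA genes. In the bin from 10 to 50 kb, which holds NEAT1 and MALAT1, they were 0.14 and 0.27, and under 10 kb, the bin of MIR22HG, 0.10 and 0.43.

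The proteins that work with these RNAs were taken list by list. None of the 14 paraspeckle protein genes tested rose with NEAT1. Of the 14, 2 were lower, beside 8.14% of all genes tested, and 12 were not called. All 14 had a log2 fold change below 0, whereas 51.0% of all genes tested lay above 0. The median of the list was -0.34 beside 0.01 for all genes tested. HNRNPH3, an RNA-binding protein of paraspeckles, had 131 and 128 CPM with DMSO and 81.6 and 68.4 CPM with SGSS05-NS (log2 fold change -0.79, SE 0.10, edgeR quasi-likelihood adjusted p = 9.9e-05). HNRNPK, which acts in making the long form of NEAT1, was also lower (-0.51, SE 0.09, adjusted p = 8.8e-04), but lost its call without either DMSO library, with an adjusted p of up to 0.012. SFPQ, one of the core proteins of paraspeckles, did not pass (-0.50, SE 0.10, adjusted p = 0.0013), nor did the chromatin remodeller SMARCA4 (-0.43, SE 0.09, adjusted p = 0.0030). NONO, the partner of SFPQ, had a log2 fold change of -0.06 (SE 0.10). The count of lower genes was 1 without DMSO replicate 2 and 3 without SGSS05-NS replicate 2.

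Of the 13 genes for nuclear speckle proteins, the surroundings of MALAT1, none was called in either direction and the median log2 fold change was 0.10. The 4 with the smallest p-values had log2 fold changes of 0.60 for SRRM1, 0.33 for ACIN1, 0.67 for SRRM2 and 0.43 for SON. SON and SRRM2, the large proteins at the core of speckles, varied between the DMSO libraries. SON had 240 and 424 CPM with DMSO and 456 and 442 CPM with SGSS05-NS, and SRRM2 had 208 and 381 CPM with DMSO and 478 and 462 CPM with SGSS05-NS. The DMSO library with the higher values of SON and SRRM2, replicate 2, also had the higher values of MALAT1 and NEAT1. Without that library 3 genes of the list, SRRM1, SRRM2 and SON, were called higher, with log2 fold changes of 0.92, 1.17 and 0.90.

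A list of 9 genes acts on the end of MALAT1 or on the m6A mark that it carries, and the median log2 fold change was -0.02. FTO, an RNA demethylase, was the one called, and it was lower, from 53.8 and 63.0 CPM to 24.3 and 29.8 CPM (log2 fold change -1.11, SE 0.12, edgeR quasi-likelihood adjusted p = 2.7e-05). FTO spans 457 kb and is the only gene of its list over 200 kb, a span at which 46.4% of all genes tested were lower. ALKBH5, the other m6A demethylase (0.31), ELAC2, which trims the small RNA released from the end of MALAT1 (-0.21), and the m6A writer METTL3 (-0.20) were not called.

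Nuclear RNA decay factors limit many lncRNAs. None of the 19 genes of the nuclear exosome and its adaptors was called, and their median log2 fold change was -0.20. RBM7, of the adaptor complex that brings short-lived nuclear RNAs to the exosome, was closest to the threshold (0.63, SE 0.12, edgeR quasi-likelihood adjusted p = 0.0010). ZFC3H1, of the adaptor for polyadenylated nuclear RNAs (0.45), ZCCHC8, the partner of RBM7 (0.42), and the exosome cofactor MPHOSPH6 (-0.49) did not pass.

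KCNQ1OT1 and MEG3 are known to work through histone methyltransferases. Of 9 genes of the polycomb complex PRC2 and of G9a, 2 were lower and none higher, with a median log2 fold change of -0.24. JARID2, a PRC2 cofactor, had 59.6 and 64.5 CPM with DMSO and 22.9 and 20.9 CPM with SGSS05-NS (log2 fold change -1.50, SE 0.11, edgeR quasi-likelihood adjusted p = 8.3e-07). EHMT1, the partner of G9a, had a log2 fold change of -0.92 (SE 0.09, adjusted p = 1.5e-05). JARID2 (276 kb) and EHMT1 (251 kb) are the only members of the list over 200 kb, where 46.4% of all genes tested were lower and the median log2 fold change was -0.78. The histone binder RBBP7 (-0.38) and the methyltransferase EZH1 (-0.34) were not called, and neither were EZH2 (0.03) and EHMT2, which encodes G9a (0.08). These are RNA levels, and the activity of G9a and EHMT1, enzymes that the study reports SGSS05-NS3 to inhibit, was not measured.

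Other well-known lncRNAs served as a comparison from a list of 30, of which 20 were tested. Of these, 4 were higher and none was lower, beside 4.52% and 0.717% of all lncRNA genes tested. Their median log2 fold change was 0.09. PURPL, known as a p53 target, had 11 and 5 counts with DMSO and 124 and 76 with SGSS05-NS (log2 fold change 3.72, SE 0.40, edgeR quasi-likelihood adjusted p = 2.1e-05). MIR34AHG, the host of the p53-induced microRNA miR-34a, had 4 and 3 counts and then 42 and 38 (3.55, SE 0.41, adjusted p = 3.8e-05). EPB41L4A-AS1, a snoRNA host (0.82, SE 0.11, adjusted p = 1.1e-04), and NORAD, a cytoplasmic RNA that binds PUMILIO proteins (0.54, SE 0.09, adjusted p = 7.1e-04), were also higher. NORAD kept its call in 1 of the 4 fits that left out a library, the one without SGSS05-NS replicate 2. TUG1, OIP5-AS1 and MIR17HG, with log2 fold changes of -0.14, -0.26 and -0.07, did not pass. FTX (0.59), MIAT (0.46), DANCR (0.44) and JPX (-0.46) did not pass either, although the change of FTX was larger than that of NORAD. Among the 20 tested, log2 fold changes ran from -0.93 to 3.72, and 11 were above 0. The list of 30 also held other lncRNAs linked to p53, and none of these was among the 4 called higher. A list of 10 microRNA genes in or beside the lncRNA genes, which does not cover the whole cluster at MEG3, had 4 members with a row (MIR770, MIR1205, MIR1207 and MIR1208). These had at most 2 counts in any library, and none was tested.

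**Figure D3:**
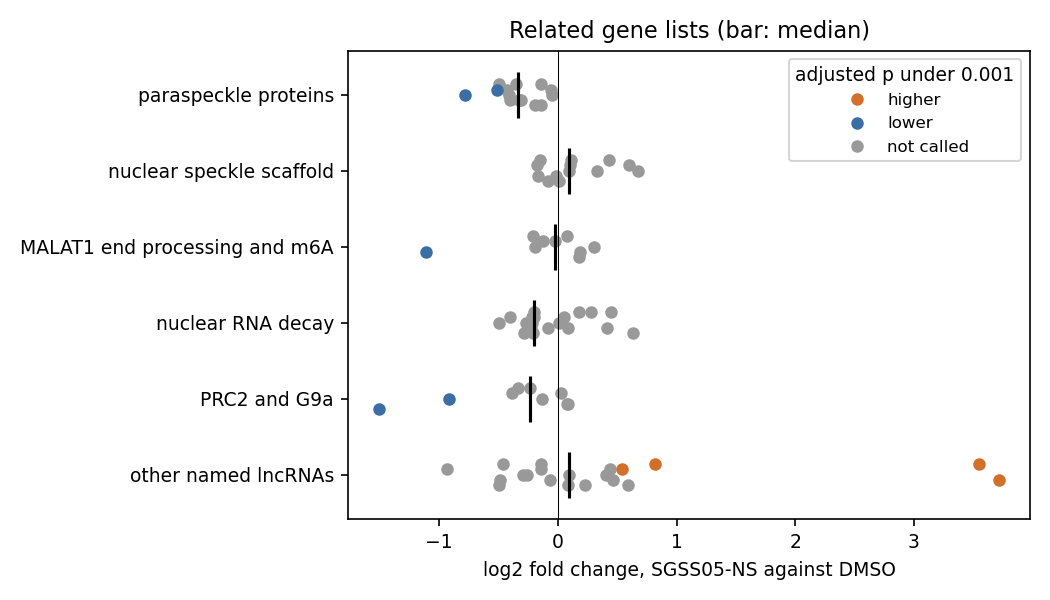
Log2 fold change (SGSS05-NS against DMSO) of each tested gene in 6 lists, with orange for higher and blue for lower at an adjusted p under 0.001, grey for not called and a bar for the median. All 14 paraspeckle protein genes lie left of 0, while 51.0% of all genes tested lay above 0. The 4 orange points are among the other named lncRNAs. Vertical offsets within a list carry no value.

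The genes around each lncRNA were described next. NEAT1 and MALAT1 are neighbours on the same strand, with starts 74.9 kb apart, and both rose. Within 100 kb of NEAT1, 7 genes were tested and 3 were higher: MALAT1, itself one of the lncRNA genes followed, SLC25A45 and DPF2. Over all genes tested, 6.37% were higher. SLC25A45, a mitochondrial carrier, went from 75 and 66 counts to 150 and 138 (log2 fold change 1.12, SE 0.19, edgeR quasi-likelihood adjusted p = 6.4e-04). Its call was lost when any 1 of the 4 libraries was left out, at an adjusted p of 0.0013 to 0.0042. DPF2, a chromatin remodelling subunit, had a log2 fold change of 0.70 (SE 0.10, adjusted p = 2.3e-04), and kept its call in 2 of the 4 fits that left out a library, losing it without DMSO replicate 2 or SGSS05-NS replicate 2. FRMD8 (0.62) and LTBP3 (0.24), also close by, were not called. Of the 9 genes tested within 100 kb of MALAT1, NEAT1 was the one called.

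MYC, the transcription factor gene whose start lies 59.1 kb before that of PVT1, was lower. It had 4236 and 4071 counts with DMSO and 2066 and 1590 with SGSS05-NS, a log2 fold change of -1.09 (SE 0.13, edgeR quasi-likelihood adjusted p = 4.6e-05), while PVT1 had a log2 fold change of 0.52. MKLN1, whose start is 0.08 kb from that of LINC-PINT on the other strand, had 3952 and 3641 counts with DMSO and 2785 and 2726 with SGSS05-NS. Its log2 fold change of -0.38 (SE 0.09, adjusted p = 0.0060) did not pass, whereas LINC-PINT rose. MKLN1 spans 387 kb, and over 200 kb the median log2 fold change of all genes tested was -0.78, with 46.4% lower.

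At the KCNQ1OT1 locus, the potassium channel gene KCNQ1 had 195 and 184 counts with DMSO and 114 and 142 with SGSS05-NS. Its log2 fold change of -0.48 (SE 0.17, edgeR quasi-likelihood adjusted p = 0.033) was not called. KCNQ1 spans 404 kb, and the median log2 fold change of all genes tested over 200 kb was -0.78. The cell cycle inhibitor CDKN1C, a known imprinted target of the locus, had a log2 fold change of 0.04 (SE 0.12). TSSC4 (0.52), SLC22A18 (0.49), CD81 (0.11) and NAP1L4 (-0.15) did not pass either. PHLDA2, the remaining imprinted gene of the list, had 0 counts with DMSO in both libraries, then 8 and 4 counts with SGSS05-NS, too few to be tested. Around MIR22HG, 7 genes were tested and none was called. WDR81, which starts 0.651 kb away on the other strand, had a log2 fold change of 0.21 (SE 0.11), and the splicing factor gene PRPF8 had -0.06 (SE 0.11). TLCD2 and SERPINF2 had at most 10 counts in any library. At the MEG3 locus, BEGAIN (-0.14) and MEG8 (0.40) were not called, and DIO3 had 4 to 12 counts per library.

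**Figure D4:**
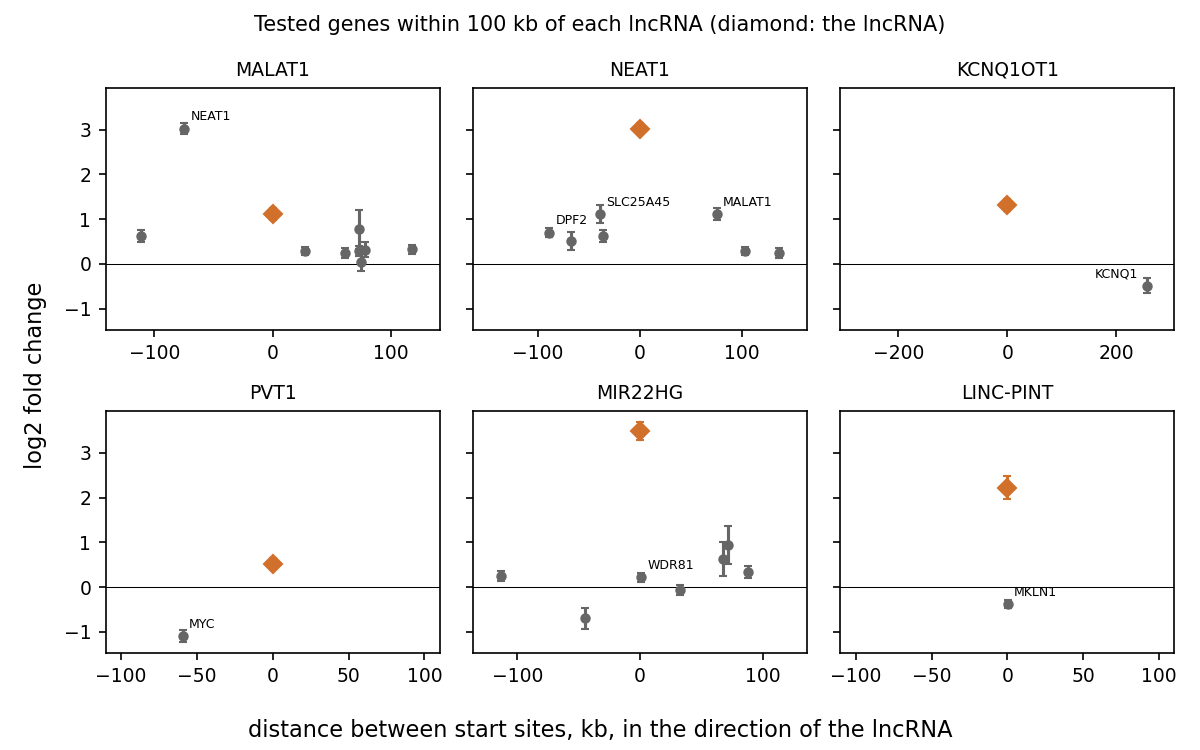
Log2 fold change with its standard error for the tested genes within 100 kb of each lncRNA gene, against the distance between start sites in kb, positive in the direction in which the lncRNA is transcribed. Diamonds mark the lncRNA itself, and starts can lie further apart than 100 kb because the window runs from the ends of the gene. MYC (-1.09) lies below 0 beside PVT1, and MKLN1 (-0.38) beside LINC-PINT, while NEAT1 and MALAT1 lie above 0 in each other's panels. MKLN1 spans 387 kb, and the median of all genes tested over 200 kb was -0.78.

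For 5 of the lncRNA genes, the tested gene whose profile over the 4 libraries was most like theirs was found by the Euclidean distance between log2 CPM values, with 0.1 added before the log, centred on their mean. These were DUSP5 for NEAT1 (distance 0.094), KLF9 for MALAT1 (0.030), DLL4 for MIR22HG (0.163), UBFD1 for PVT1 (0.018) and PDE4A for LINC-PINT (0.086). All 5 encode proteins. Their log2 fold changes were 3.14, 1.12, 4.45, 0.53 and 2.20 in the same order. DLL4 had 0.0399 and 0.0856 CPM with DMSO, below the 0.1 that was added, and 1.44 and 1.49 CPM with SGSS05-NS, so its likeness to MIR22HG rests on that addition. With 4 libraries such a likeness rests mostly on the difference between the conditions.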

How the data were processed

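RNA of SY5Y cells was sequenced in 4 libraries, 2 with DMSO and 2 with SGSS05-NS, grouped and numbered by their labels. Per the labels, the authors trimmed reads with Trimmomatic 0.30 and aligned them to hg19 with STAR 2.4.2a. They deposited raw counts of fragments per gene, unstranded and for each strand, with no normalization and no pooling. The reverse-strand column was used. Summary rows stayed out of library sizes. Ambiguous fragments (2.32% to 2.58%) were assigned to no gene. EdgeR 4.0.16 in R 4.3.3 was applied to the counts: filterByExpr, TMM, the quasi-likelihood test without other terms, Benjamini-Hochberg adjustment over 16468 genes and the study's threshold of 0.001. The standard error is the log2 fold change divided by the root of F. The script was tested on simulated data.

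Symbols, positions and lengths came from GENCODE 44 on GRCh37 by identifier (55538 of 57820 rows matched), so exon lengths are not those of the annotation used in counting. Promoters and microRNAs came from RefSeq on GRCh38.p14. For profiles, 0.1 was added to CPM before the log2.

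The named genes were the 7 lncRNA genes, the 4 genes with the smallest p-value of each list, called genes within 100 kb, all known neighbours and the gene of nearest profile. NONO, EZH2, EHMT2, TUG1, OIP5-AS1, MIR17HG, FTX, MIAT, DANCR and JPX are named beyond that rule, after their values were seen. So are the list members at very low counts, the microRNA rows and the cell markers. The results of 4 genes that the rule or the lists would name are not reported here. The members, lists and tests were chosen with earlier results of these data known. Alternatives were the likelihood ratio test, DESeq2 1.42.0, limma 3.58.1 with voom, 2 other scalings, 2 other filters, a replicate block, unstranded counts, other thresholds, leaving out each library and the longest transcript as length.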

Additional observations from a re-analysis of the deposited data

How the results depend on the processing

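NEAT1, MALAT1, KCNQ1OT1, MIR22HG and LINC-PINT kept their direction and passed 0.001 in all 13 alternative fits. PVT1 kept its direction in all 13 and passed in 1, the likelihood ratio test, where its log2 fold change was 0.52 (edgeR, adjusted p = 5.2e-04), and the count of higher members was then 6. Over the other fits its adjusted p reached 0.028. With a threshold of 0.05 or 0.01 the count was also 6, and no member was lower in any fit. Leaving out 1 library at a time gave log2 fold changes of 2.84 to 3.22 for NEAT1, 0.94 to 1.31 for MALAT1, 1.12 to 1.48 for KCNQ1OT1, 3.33 to 3.64 for MIR22HG, 0.50 to 0.54 for PVT1 and 2.17 to 2.28 for LINC-PINT. The lone library of a condition was then assumed to vary like the other condition. Per kb of the longest transcript the level was 4.51 FPKM for MIR22HG with SGSS05-NS, 5.41 and 7.76 FPKM for PVT1 with DMSO and SGSS05-NS, and 0.132 and 0.617 FPKM for LINC-PINT, since that transcript is shorter than all exons together.

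The replicate numbers did not establish pairs: the differences between replicates 1 and 2 in the 2 conditions had a correlation of 0.05 across genes. With a replicate block, 1759 genes were higher and 2007 lower, beside 1049 and 1341 without it, and the calls of the 7 lncRNA genes were the same. The likelihood ratio test gave 2022 and 2267, and no filter on low counts gave 2034 and 2570 of 30755. Of the list counts recomputed under these fits, an alternative added after seeing the data, 206 of 234 stayed within 1.5 times the reported count. That total includes counts of 0 that stayed 0, and those of the microRNA list, in which no gene was tested. It therefore says little about the lists with calls. Paraspeckle genes called lower numbered 1 to 6, and speckle genes called higher 0 to 3. With the replicate block these were 1 and 2. LINC-PINT and MIR22HG rest on at most 30 counts per DMSO library, and their folds are the least precise at this depth.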

Other observations

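H19, an imprinted lncRNA whose gene lies on the same chromosome arm as KCNQ1OT1, followed the replicate number and not the treatment. It had 162 and 67.8 CPM in DMSO replicates 1 and 2 and 182 and 64.5 CPM in SGSS05-NS replicates 1 and 2. The imprinted gene DLK1 had 493 and 345 CPM with DMSO and 410 and 256 CPM with SGSS05-NS, again higher in replicate 1 of both. KCNQ1OT1 did not show that order, at 47.6 and 38.4 CPM with DMSO and 93.4 and 120 CPM with SGSS05-NS. These genes were singled out after their values were seen, and the difference between replicate numbers was not tested.

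CYTOR, another lncRNA too scarce for the test, had 0 and 1 counts with DMSO and 18 and 10 with SGSS05-NS. LUCAT1, a stress-responsive lncRNA, had 3 and 7 counts with DMSO and 21 and 6 with SGSS05-NS, so its conditions overlapped.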
